A study of Mus musculus with 17 samples.

Results

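Guanylate-binding proteins (Gbp) and immunity-related GTPases are 2 families of large GTPases of the mouse, and 10 of them were followed here: Gbp2, Gbp3, Gbp4, Gbp5, Gbp6, Gbp7, Gbp9, Irgm1, Igtp and Iigp1. They were picked by symbol from a table of 35321 genes, with earlier results of these data in view: the choice names them as interferon-gamma-type GTPases and names Gbp3 for its rise in the libraries given a blocking antibody. Levels in those antibody libraries therefore chose the genes and are described below without p-values. Counts of calls and of unadjusted p below 0.05 on them are given, most of them beside the share or count over all genes. Nothing is read from these counts. All 10 passed the filter on low counts, as did 14920 genes in all.

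RNA with a poly(A) tail was sequenced in 17 libraries from hematopoietic stem and progenitor cells, the immature blood-forming cells (HSPC). The cells were sorted from bone marrow of wild-type C57BL/6J mice, an inbred strain, and no group carried a transgene or a deletion. The controls were 5 libraries from mice injected into the peritoneum with phosphate-buffered saline (PBS), titled as day 0. Lipopolysaccharide (LPS), a component of the outer membrane of Gram-negative bacteria, was injected without antibody in 3 libraries collected at 24 h and in 3 collected at 72 h. In 3 further libraries at 24 h and 3 at 72 h the mice had also received a blocking antibody against the receptor of interleukin-10, an anti-inflammatory cytokine; these 6 are called the antibody libraries. The series' design text gives the dose of LPS as 5 micrograms and that of the antibody as 100 micrograms, but the sample protocol has the same figures in milligrams. There was no group with the antibody alone, and the labels give neither age nor sex, nor say whether a library is 1 mouse or a pool, so p-values measure only the spread between these libraries.

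These GTPases are among the genes most strongly transcribed after interferon-gamma. That cytokine acts through its receptor and the kinases Jak1 and Jak2, reaches sites known as GAS and switches on Irf1, a transcription factor that binds sites known as ISRE. Type I interferons also act on ISRE sites. The proteins coat the vacuoles in which microbes hide, break them open and feed into inflammasomes. Irgm1 belongs to a regulatory subclass of immunity-related GTPases that holds the effectors inactive on the cell's own membranes, and mice without it are known for impaired blood stem cells.

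The members lie on 4 chromosomes (GENCODE M21, GRCm38). Gbp5 (chr3:142493978-142522344), Gbp7 (chr3:142530342-142550149), Gbp3 (chr3:142560026-142573209) and Gbp2 (chr3:142620602-142638008) follow each other on the plus strand of chromosome 3. Gbp9 (chr5:105077630-105139539), Gbp4 (chr5:105115767-105139586) and Gbp6 (chr5:105270702-105293698) lie on the minus strand of chromosome 5. Irgm1 (chr11:48861968-48871683, minus strand) and Igtp (chr11:58199556-58207591, plus strand) are on chromosome 11, and Iigp1 is on another chromosome. The gene models of Gbp4, Gbp9 and a further family gene, Gbp8, overlap on 1 strand, as do those of Igtp and Irgm2, and the families hold similar sequences. How reads shared between such genes were assigned is not given in the sources used here, so the split of counts among them is uncertain.

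Upstream sequences are shown because interferons are known to reach genes of these families through such sites. RefSeq upstream windows (GRCm38.p6) were at hand for 6 members: Gbp2, Gbp3, Gbp5, Gbp7, Irgm1 and Igtp. An ISRE-type motif, the letters GAAA, any 2 bases and GAAA again, was searched on both strands in the 250 bases before each start and occurred in 6 of the 6 members, against 2.98% of the 32851 windows of that length in the table. The motif TTCNNNGAA, a GAS-type sequence, occurred in 3 of them, Gbp5, Gbp7 and Igtp, against 7.02% of windows, and 0.332% of windows held both motifs. The last 180 bases before the start are printed from 5′ to 3′ on the strand of the gene, with motif matches in capitals (a match on the opposite strand appears as its reverse complement): chr3:142620483-142620662 (plus strand) for Gbp2, chr3:142559864-142560043 (plus) for Gbp3, chr3:142496754-142496933 (plus) for Gbp5, chr3:142530156-142530335 (plus) for Gbp7, chr11:48871421-48871600 (minus) for Irgm1 and chr11:58199376-58199555 (plus) for Igtp.
Gbp2: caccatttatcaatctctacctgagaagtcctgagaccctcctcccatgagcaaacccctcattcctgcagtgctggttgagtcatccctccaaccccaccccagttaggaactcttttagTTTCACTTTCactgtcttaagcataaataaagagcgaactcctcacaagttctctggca
Gbp3: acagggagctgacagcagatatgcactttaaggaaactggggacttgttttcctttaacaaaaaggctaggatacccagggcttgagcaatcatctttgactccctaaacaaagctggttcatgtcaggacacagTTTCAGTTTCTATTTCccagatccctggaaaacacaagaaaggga
Gbp5: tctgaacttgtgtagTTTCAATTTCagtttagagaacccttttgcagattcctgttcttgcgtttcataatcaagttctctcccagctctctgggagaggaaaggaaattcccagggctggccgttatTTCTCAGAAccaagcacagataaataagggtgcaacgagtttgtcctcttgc
Gbp7: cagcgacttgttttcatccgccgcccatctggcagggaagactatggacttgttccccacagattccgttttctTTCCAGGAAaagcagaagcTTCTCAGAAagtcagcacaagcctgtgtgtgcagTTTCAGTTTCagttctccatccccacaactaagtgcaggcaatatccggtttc
Irgm1: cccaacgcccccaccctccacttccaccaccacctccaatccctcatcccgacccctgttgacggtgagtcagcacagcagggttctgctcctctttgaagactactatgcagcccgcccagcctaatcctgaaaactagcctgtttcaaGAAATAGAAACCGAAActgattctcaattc
Igtp: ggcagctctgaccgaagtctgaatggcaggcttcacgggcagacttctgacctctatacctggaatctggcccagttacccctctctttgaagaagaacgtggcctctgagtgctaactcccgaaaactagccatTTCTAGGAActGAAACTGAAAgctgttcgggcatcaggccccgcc

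Counting back from the start, with -1 as the last base before it, the ISRE-type match of Gbp2 began at -59 and that of Gbp7 at -53. Gbp3 and Irgm1 had 2 overlapping ISRE-type matches each, from -45 and -39 in Gbp3 and from -30 and -24 in Irgm1. In Igtp a GAS-type match at -45 was followed by an ISRE-type match at -34. Gbp5 differed in having its ISRE-type match farther out, at -165, with GAS-type matches at -245, outside the printed stretch, and at -52. Gbp7 held GAS-type matches at -106 and -87. The window of a second annotated start of Gbp3 held neither motif. Of the other family genes with a window, Irgm2, Tgtp1 and Tgtp2 held a GAS-type match followed closely by an ISRE-type match, as Igtp did, and Gbp2b held an ISRE-type match at -137. Distances count from the RefSeq start, which can differ from the GENCODE positions given above. The printed stretches of Gbp5 and Irgm1 lie inside their GENCODE gene models, and those of Gbp2 and Gbp3 end inside theirs. The bases just after the Gbp7 start were not found in a GENCODE transcript of that gene. A match is a run of letters, and binding was not measured.

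**Figure D1:**
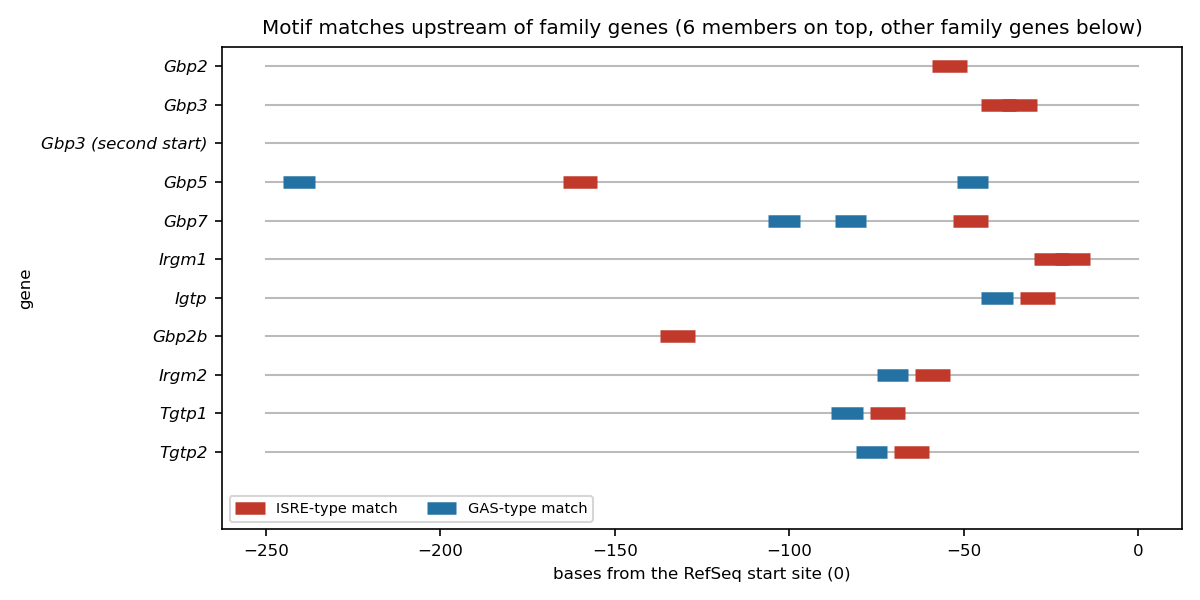
Positions of ISRE-type (red) and GAS-type (blue) matches on either strand in the 250 bases before the RefSeq start of 6 members and of 4 other family genes, in bases from the start on the x axis. All 6 members have a red match in the window of their first start, and in Gbp2, Gbp3, Gbp7, Irgm1 and Igtp it begins at -59 or closer to the start.

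Libraries held between 10516722 and 16006001 counts. The stem and progenitor markers Kit, Cd34 and Flt3 were present in every library. A library differed in composition from the rest, LPS library 1 at 24 h: its scaling factor was 0.799 and 16431 genes were detected in it. No 2 libraries of a group were near copies of each other: the smallest chi-square per degree of freedom between libraries of a group was 11.1. Levels below are in CPM, the count of a gene relative to the library total after scaling by the trimmed mean of M-values (TMM). In bulk RNA fewer cells of a type and less RNA per cell cannot be told apart.

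In PBS libraries the 10 transcripts were all present, at modest levels that differed between genes. Per kilobase of exon, Igtp stood at 21.4 ± 1.78 CPM per kb (SD, n = 5) and Gbp3 at 21 ± 2.89, followed by Irgm1 at 15.3 ± 1.22, Gbp2 at 14.6 ± 2.64 and Gbp7 at 11.9 ± 1.73. Gbp6 stood at 6.23 ± 5.14, Gbp5 at 4.47 ± 0.461, Iigp1 at 3.14 ± 0.694, Gbp9 at 2.83 ± 1.28 and Gbp4 at 2.23 ± 2.19. Neighbours in that order overlapped in range, except that the lowest Gbp3 value (17.2) lay above the highest Irgm1 value (16.4). Relative to its mean, the spread was widest for the 3 chromosome 5 genes, for which PBS library 1 was the highest, followed by library 2 for Gbp9.

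The members' levels were set apart most by 2 libraries, the antibody library numbered 1 at 24 h and the antibody library numbered 1 at 72 h. For 10 of the 10 members these were the 2 highest of the 17 libraries, beside 7.21% of all tested genes (1076 of 14920). The members and the 2 libraries were both named with these values in view, so the count describes and tests nothing. The 72 h library was above the 24 h library for all 10 members. The LPS libraries numbered 1, given no antibody, did not share the pattern. Summed over the members, the level was 3491 CPM in antibody library 1 at 24 h and 5568 CPM in antibody library 1 at 72 h. In the other 15 libraries the sum ran from 325 to 617 CPM.

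Gbp2, which helps to break open microbial vacuoles, had the highest level per length in these 2 libraries. The antibody libraries held 914, 41.9 and 24.6 CPM of Gbp2 at 24 h and 1437, 25 and 19.9 CPM at 72 h, in the order of libraries 1, 2 and 3. The other libraries held 30.5 to 46.9 CPM with PBS, 27.6 to 64.0 after LPS at 24 h and 37.6 to 73.2 after LPS at 72 h. Library 1 thus stood 26.3-fold (24 h) and 41.4-fold (72 h) above the median of the 15 other libraries, while antibody libraries 2 and 3 were within or below the PBS range.

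Iigp1, an effector that disrupts the vacuole of Toxoplasma, showed the largest ratios of the 10, 32.7-fold at 24 h and 48.1-fold at 72 h. Its antibody libraries held 522, 22.9 and 5.77 CPM at 24 h and 769, 16 and 4.95 CPM at 72 h. PBS libraries held 13.4 to 22.9 CPM, so that antibody library 3 was below every PBS library at both times. Igtp, a regulatory immunity-related GTPase also known as Irgm3, held 507, 69.1 and 31.9 CPM at 24 h and 668, 52.6 and 27.7 CPM at 72 h, against 39.4 to 47.0 CPM with PBS. Antibody library 2 lay above and library 3 below the PBS range for Igtp at both times. Irgm1 held 409, 107 and 63.1 CPM at 24 h and 528, 84.7 and 53.8 CPM at 72 h, against 77.5 to 95.2 CPM with PBS. Its library 1 stood 4.67-fold and 6.03-fold above the median of the other 15.

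The chromosome 5 genes gave a wide contrast inside the antibody groups, as Iigp1 did. Gbp4 held 104, 5.15 and 0.569 CPM at 24 h and 233, 12 and 1.56 CPM at 72 h, where 0.569 CPM was a count of 7. Gbp6 held 157, 11.9 and 1.95 CPM at 24 h and 362, 32.4 and 1.56 CPM at 72 h. Gbp9 held 76.0, 6.09 and 0.65 CPM at 24 h and 137, 9.16 and 1.41 CPM at 72 h. Antibody library 1 was the highest and antibody library 3 the lowest of its group for each of these genes, and library 3 lay below all 5 PBS libraries at both times.

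The other chromosome 3 genes differed less between libraries. Gbp5, which promotes assembly of the NLRP3 inflammasome, held 183, 32.5 and 30.2 CPM at 24 h and 445, 22.3 and 33.9 CPM at 72 h, against 25.9 to 34.0 CPM with PBS. Gbp7 held 360, 91.1 and 54.6 CPM at 24 h and 526, 73.2 and 69.4 CPM at 72 h, against 52.4 to 78.5 CPM with PBS. Of the libraries numbered 2 and 3, Gbp5 lay below the PBS range in 1 (library 2 at 72 h), Gbp7 above it in 1 (library 2 at 24 h), and the others were inside it. Gbp3 had the smallest ratio in library 1, 2.47-fold at 24 h and 4.40-fold at 72 h, and it was also the member for which libraries 2 and 3 were above PBS. It held 260, 128 and 112 CPM at 24 h and 463, 114 and 114 CPM at 72 h, against 76.0, 64.1, 66.4, 79.5 and 56.1 CPM in PBS libraries 1 to 5. Among the 10 members only Gbp3 had all 12 libraries after LPS, with or without antibody, above all 5 PBS libraries; 0.174% of tested genes (26) did so.

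**Figure D2:**
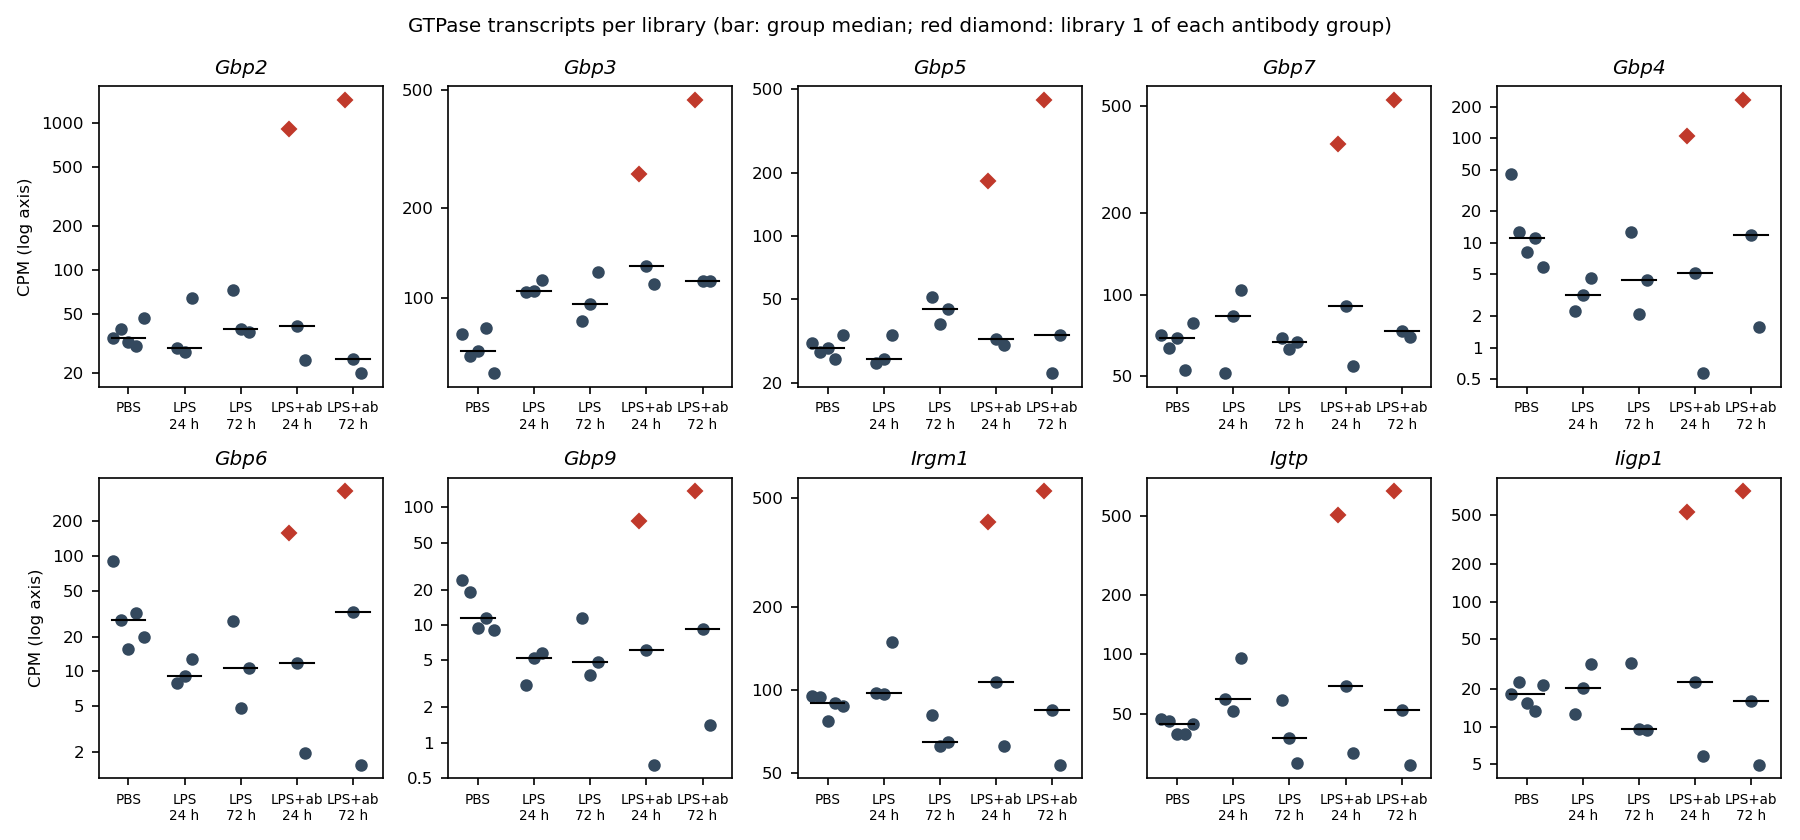
Level of each of the 10 members in every library, in CPM on a log axis, by group; points are libraries, black bars are group medians, and red diamonds are library 1 of each antibody group. The red diamonds are the highest point of both antibody groups in every panel, and in the Gbp3 panel all points after LPS lie above the PBS points.

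Per length, the order in antibody library 1 differed from that with PBS. At 24 h Gbp2 led with 363 CPM per kb, followed by Igtp (251), Iigp1 (89.6), Gbp3 (79.5), Irgm1 (70.4) and Gbp7 (64.1). Gbp5 (27.5), Gbp6 (26.3), Gbp9 (14.7) and Gbp4 (13.9) were lower. At 72 h Gbp2 stood at 571, Igtp at 330, Gbp3 at 142 and Iigp1 at 132 CPM per kb. These are single libraries and carry no replicate error.

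Markers of cell types in these 2 libraries were read beside the GTPases. Erythroid markers summed to 1871 CPM in antibody library 1 at 24 h and 1212 CPM at 72 h, against 174 to 1026 CPM in the other 4 antibody libraries, 267 to 487 CPM with PBS, 491 to 1241 CPM after LPS at 24 h and 108 to 183 CPM after LPS at 72 h. The sum was thus the highest of all in the 24 h library, whereas LPS library 3 at 24 h lay above the 72 h library. Of the 8 erythroid markers, 2 had both libraries highest, Car1 and Epor, beside 7.21% of all tested genes. Mpo, a neutrophil granule enzyme, was at 2830 and 2678 CPM, inside the range of the other 15 libraries (1938 to 10107 CPM, median 7088). The 7 neutrophil markers summed to 3318 and 2929 CPM, and of the other 15 libraries only PBS library 5 was lower (2084 CPM). In the 72 h library S100a8 (3.28 CPM), S100a9 (3.62), Camp (0.505) and Ltf (0.42) lay below every other library, which Mpo, Elane and Ly6g did not. Of the 12 HSPC markers, Cd34 and Cd48 were lower in both libraries than in any other. Cd34 stood at 234 and 340 CPM (lowest other 358) and Cd48 at 73.2 and 65.8 CPM (lowest other 107). Ly6a, which is also on the list of other genes of the interferon-gamma type, had both libraries highest, at 530 and 632 CPM (highest other 266). Cd34, Cd48 and Ly6a were named after their values were seen. None of the markers of monocytes and macrophages (0 of 10), neutrophils (0 of 6), B cells (0 of 7) or dendritic cells (0 of 6) had both libraries highest; among T and NK markers 1 of 10 did, Il2rb, and 1, Nkg7, had both lowest. Markers of monocytes and macrophages summed to 848 and 483 CPM in these libraries and T and NK markers to 118 and 85.7 CPM, against 630 to 2746 and 116 to 289 CPM with PBS. The part of these differences in the GTPase levels was not tested.

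Over the groups of 3, few members passed the test when the antibody groups were set against their controls. These counts describe libraries that chose the genes, and nothing is read from them; genes were called at an adjusted p below 0.05 by edgeR's quasi-likelihood test. Against PBS, 1 member was called at 24 h, Gbp3, with 24.2% of all tested genes called (11.7% higher), and 3 were called at 72 h, Gbp2, Gbp3 and Gbp5, with 13.2% of all genes called (6.81% higher). All 4 calls were higher. The log2 change of Gbp3 was 1.28 (SE 0.376) at 24 h and 1.75 (SE 0.376) at 72 h. Gbp2 changed by 3.15 (SE 1.15) and 3.75 (SE 1.16) on the log2 scale, and Gbp5 by 2.50 (SE 0.731) at 72 h.

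Without the 2 antibody libraries numbered 1, a setting chosen after seeing the data, the log2 change of Gbp3 was 0.82 (SE 0.149) at 24 h and 0.77 (SE 0.149) at 72 h. The Gbp2 change turned from higher to lower, to -0.13 at 24 h and -0.69 at 72 h, and the Gbp5 change at 72 h to -0.049. Gbp3 was also the member whose libraries did not overlap with PBS in either antibody group; 14.2% of tested genes lay above without overlap at 24 h and 13.4% at 72 h.

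Set against LPS alone at the same time, edgeR called 0 of 10 members at 24 h (0% of all genes). At 72 h it called 0 of 10 (15.1% of all genes). An unadjusted p below 0.05 was given to 2 members at 24 h, beside 273 of 14920 tested genes. At 72 h it was given to 10 members, beside 4852 of 14920. These libraries chose the genes, so these counts test nothing, and nothing is read from them either. DESeq2 called 0 members at 24 h and 1 at 72 h, and in every comparison it gave no adjusted p for Gbp2, Gbp5 and Iigp1, so that its counts cover 7 members. The log2 change at 72 h was 1.20 (SE 0.435) for Gbp3 and 1.75 (SE 0.701) for Gbp7. Without the 2 antibody libraries numbered 1 these changes were 0.23 (SE 0.167) and 0.15 (SE 0.26). At 72 h the LPS libraries held 69.2, 62.7 and 66.5 CPM of Gbp7, all below the lowest antibody library (69.4 CPM), and Gbp7 was the 1 member whose libraries did not overlap there (17.1% of all genes lay above in this way). Between the antibody groups at 72 h and 24 h, 0 of 10 members were called (0% of all genes), and for the difference of the antibody effect between the times also 0 of 10 (6.35% of all genes). No member had an unadjusted p below 0.05 in these 2 comparisons (0 of 10 each), beside 635 and 3616 of 14920 tested genes. DESeq2 called 0 of 7 in each.

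LPS alone was compared with PBS to see what the GTPases did without receptor blockade. No antibody library enters these contrasts, although the shared estimate of spread comes from all 17 libraries; the 24 h and 72 h comparisons share the PBS libraries. At 24 h 3 members lay above PBS in every library, Gbp3, Irgm1 and Igtp, and the 3 chromosome 5 genes Gbp4, Gbp6 and Gbp9 lay below PBS in every library. That is 6 of 10 without overlap, against 42.8% of all tested genes. By edgeR's quasi-likelihood test 0 of the 10 were called, against 37.6% of all genes (5616, or 3361 without LPS library 1 at 24 h), 0 had an unadjusted p below 0.05, and DESeq2 called 0 of 7. The members' median log2 change was 0.19, beside -0.03 for all tested genes.

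Gbp3 held 105, 106 and 115 CPM in LPS libraries 1 to 3 at 24 h, against the 56.1 to 79.5 CPM with PBS. The groups did not overlap. The log2 change was 0.67 (SE 0.379, edgeR adjusted p = 0.176). With the 2 antibody libraries numbered 1 left out the change was 0.68 with a smaller error (SE 0.133, edgeR adjusted p = 0.00162), and the gene was then called higher, with 42.2% of all genes called. A fit of these 2 groups blocked on the replicate number, over libraries 1 to 3, called it too (edgeR adjusted p = 0.0102). The labels do not give that pairing.

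The chromosome 5 genes lay on the other side of PBS. Gbp4 held 45.7, 12.7, 8.26, 11 and 5.83 CPM in PBS libraries 1 to 5 and 2.22, 3.16 and 4.66 CPM after LPS at 24 h, from counts of 24, 46 and 73. The log2 change was -2.30 (SE 1.48, edgeR adjusted p = 0.233). With both antibody libraries numbered 1 left out it was -2.29 (SE 0.88, edgeR adjusted p = 0.0494), a call of lower. PBS library 1 was the highest of the PBS libraries by a wide margin, and the LPS libraries lay below even the lowest of them. Gbp6 held 90.6, 27.6, 15.6, 31.8 and 19.9 CPM with PBS and 7.97, 9.06 and 12.9 CPM with LPS, a log2 difference of -1.89 (SE 1.32, edgeR adjusted p = 0.275). Gbp9 held 24.1, 19.0, 9.47, 11.5 and 9.05 CPM with PBS and 3.06, 5.22 and 5.74 CPM with LPS, a log2 difference of -1.63 (SE 1.23, edgeR adjusted p = 0.311). Neither passed without those 2 libraries (edgeR adjusted p = 0.0924 and 0.0612). A fit blocked on the replicate number called all 3 lower (edgeR adjusted p = 0.0233 for Gbp4, 0.0408 for Gbp6 and 0.013 for Gbp9). The labels give no such pairing.

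Markers of several cell types also differed in the same LPS libraries, where 37.6% of all tested genes were called in either direction. Of the 10 markers of monocytes and macrophages, 9 were called lower at 24 h, with a summed level of 360 to 710 CPM against 630 to 2746 CPM with PBS. Markers of B cells and plasma cells summed to 69.0 to 88.9 CPM against 373 to 1325 CPM, with 3 of 7 called lower, and dendritic markers to 279 to 457 CPM against 500 to 722 CPM, with 5 of 6 called lower and 1 higher. The HSPC markers themselves summed to 1188 to 1329 CPM against 1804 to 2641 CPM, with 7 of 12 called lower. Erythroid markers lay on the other side, at 491 to 1241 CPM against 267 to 487 CPM, with 1 of 8 called higher and 1 lower. The sums of neutrophil markers and of T and NK markers overlapped with PBS. Yet 3 of 10 T and NK markers were called lower, and the median log2 change of that list was -1.43. Of the neutrophil markers, 0 of 6 were called. PBS library 1, the highest for Gbp4, Gbp6 and Gbp9, had the lowest sum of monocyte and macrophage markers of the 5 (630 CPM). The part of these markers in the GTPase levels was not tested.

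Of the immunity-related GTPases, Irgm1 and Igtp lay above PBS and Iigp1 did not. Irgm1 held 95.2, 94.4, 77.5, 89.9 and 87.6 CPM with PBS and 97.8, 97.2 and 150 CPM with LPS, a log2 difference of 0.37 (SE 0.604, edgeR adjusted p = 0.655). Igtp held 47.0, 46.1, 39.4, 39.7 and 44.6 CPM with PBS and 59.5, 51.7 and 95.9 CPM with LPS, a log2 difference of 0.67 (SE 0.842, edgeR adjusted p = 0.553). LPS library 3 was the highest for both, and neither passed the test. Iigp1, at 12.5, 20.3 and 31.5 CPM with LPS, overlapped with its PBS range, as did Gbp2, Gbp5 and Gbp7.

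At 72 h after LPS alone 0 of 10 members were called against PBS by edgeR, beside 0.0201% of all genes (3), 0 had an unadjusted p below 0.05, and DESeq2 called 0 of 7. Gbp3 and Gbp5 lay above PBS in every library, which 4.96% of all tested genes did. Gbp3 held 84.1, 95.8 and 122 CPM, a log2 difference of 0.56 (SE 0.38, edgeR adjusted p = 0.583). Gbp5 held 31, 28.1, 29.3, 25.9 and 34.0 CPM with PBS and 51.1, 38.2 and 45.1 CPM at 72 h, a log2 difference of 0.60 (SE 0.738, edgeR adjusted p = 0.78). The chromosome 5 genes overlapped with PBS again: LPS library 1 held 12.6 CPM of Gbp4, inside the PBS range, while libraries 2 and 3 held 2.11 and 4.46 CPM, below it. LPS library 1 at 72 h had 5 members above and 0 below the PBS range, whereas libraries 2 and 3 each had 2 above and 6 below.

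Set against LPS at 24 h, every library at 72 h lay above for Gbp5 and below for Irgm1. Gbp5 went from 24.8, 26.0 and 33.7 CPM to 51.1, 38.2 and 45.1 CPM, a log2 difference of 0.67 (SE 0.841, edgeR adjusted p = 0.571). Irgm1 went from 97.8, 97.2 and 150 CPM to 81.1, 63.0 and 65.0 CPM, a log2 difference of -0.72 (SE 0.687, edgeR adjusted p = 0.448). So 2 of 10 members did not overlap, against 45.4% of all genes, and 0 of 10 were called, against 31.1% of all genes. The unadjusted p was below 0.05 for 0 of them. By DESeq2 0 of 7 were called, and Gbp5 is not among those 7. Both were called without the 2 antibody libraries numbered 1 (edgeR adjusted p = 0.0115 for Gbp5 and 0.0189 for Irgm1), beside 36.1% of all genes.

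**Figure D3:**
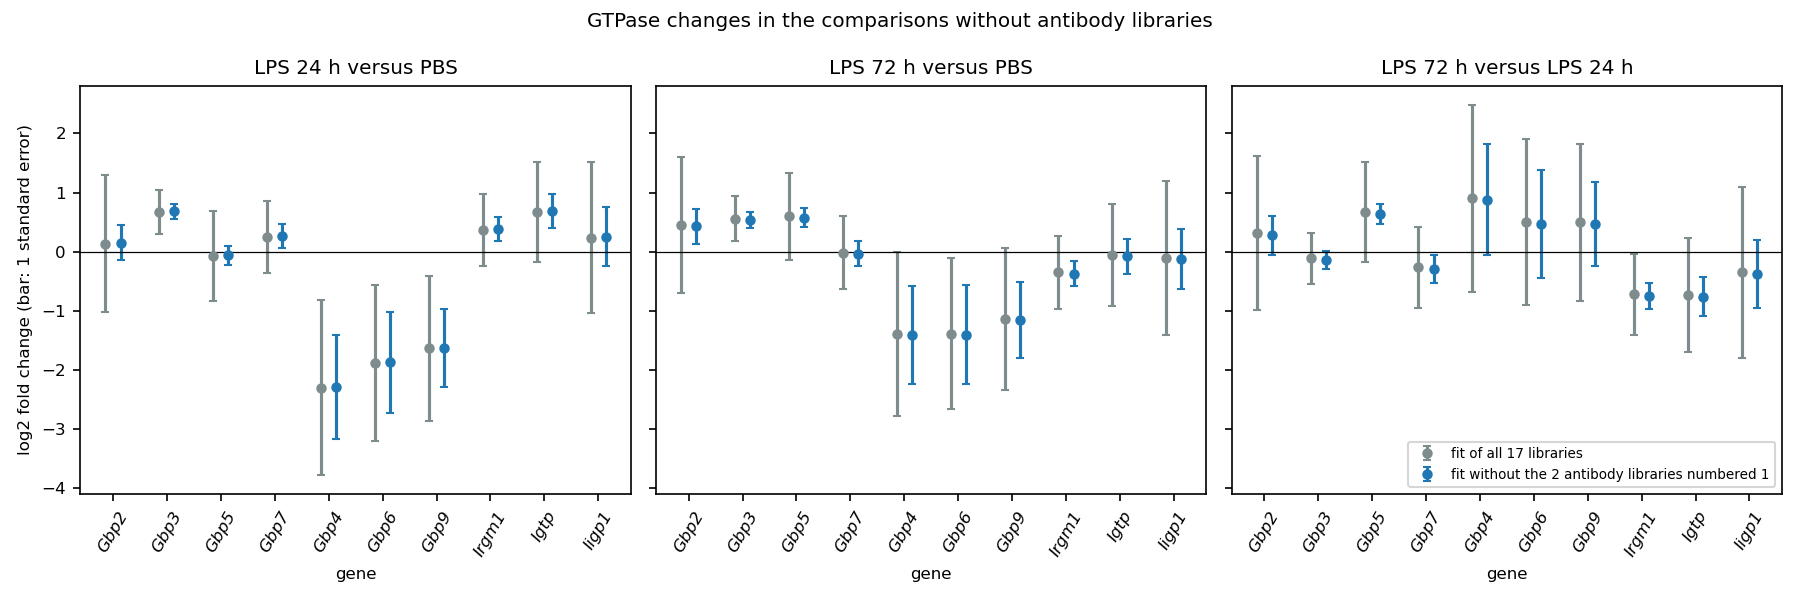
Log2 fold change of each member, with bars of 1 standard error, in the 3 comparisons of LPS alone and PBS, from the fit of all 17 libraries (grey) and from the fit without the 2 antibody libraries numbered 1 (blue). The points hardly move between the fits while the bars shorten, for Gbp3 at 24 h from 0.379 to 0.133.

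The other genes of the pathway were taken from lists. Of 13 other family GTPases tested, 10 had both antibody libraries numbered 1 highest (76.9%), among them Irgm2, Tgtp1, Tgtp2, Gbp10 and Ifi47. Irgm2 held 263 CPM at 24 h and 290 CPM at 72 h in those libraries, against 21.9 to 54.1 CPM in the other 15, and Tgtp1 held 391 and 539 CPM against 7.35 to 40.6 CPM. Tgtp2, nearly identical to Tgtp1, held 395 and 556 CPM and Ifi47 332 and 398 CPM. Gbp8 did not share the pattern: it held 13.6 and 20.1 CPM there and 33.4 CPM in its highest other library, PBS library 1. Gbp2b was at a count too low to be tested. At 24 h after LPS alone, 3 of the 13 were called, all lower, beside 37.6% of all genes, and Gbp8 fell by 3.54 on the log2 scale (SE 0.959, edgeR adjusted p = 0.00987), from 33.4, 23.5, 11.4, 14.7 and 14.2 CPM with PBS to 1.02, 1.99 and 1.91 CPM. Gbp8 overlaps Gbp4 and Gbp9 in the annotation. Gbp11 and Gm12250, also on the list, were not analysed here.

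Of 14 genes of interferon-gamma receptor signalling, 7 had both antibody libraries numbered 1 highest (50%), among them Irf1. It held 237 and 363 CPM there, against 67.6 to 131 CPM in the other 15 libraries. The receptor chains did not: Ifngr1 was at 223 and 248 CPM, beside 123 to 279 CPM elsewhere, and Ifngr2 at 34.7 and 34.8 CPM, beside 24.0 to 56.5 CPM. Ifng itself, the cytokine, was too low to be tested, with 4 and 21 counts in these libraries and 0 to 5 counts in each of the others. After LPS alone at 24 h, 1 of the 14 was called higher and 2 lower (37.6% of all genes were called). Those lower were the kinase Jak1 (log2 change -0.42, edgeR adjusted p = 0.0198) and Irf8, a factor of myeloid cells (-0.99, edgeR adjusted p = 0.0278), and Irf8 was higher again at 72 h than at 24 h (1.60, edgeR adjusted p = 0.00442). The list's median log2 change at 24 h was -0.09.

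**Figure D4:**
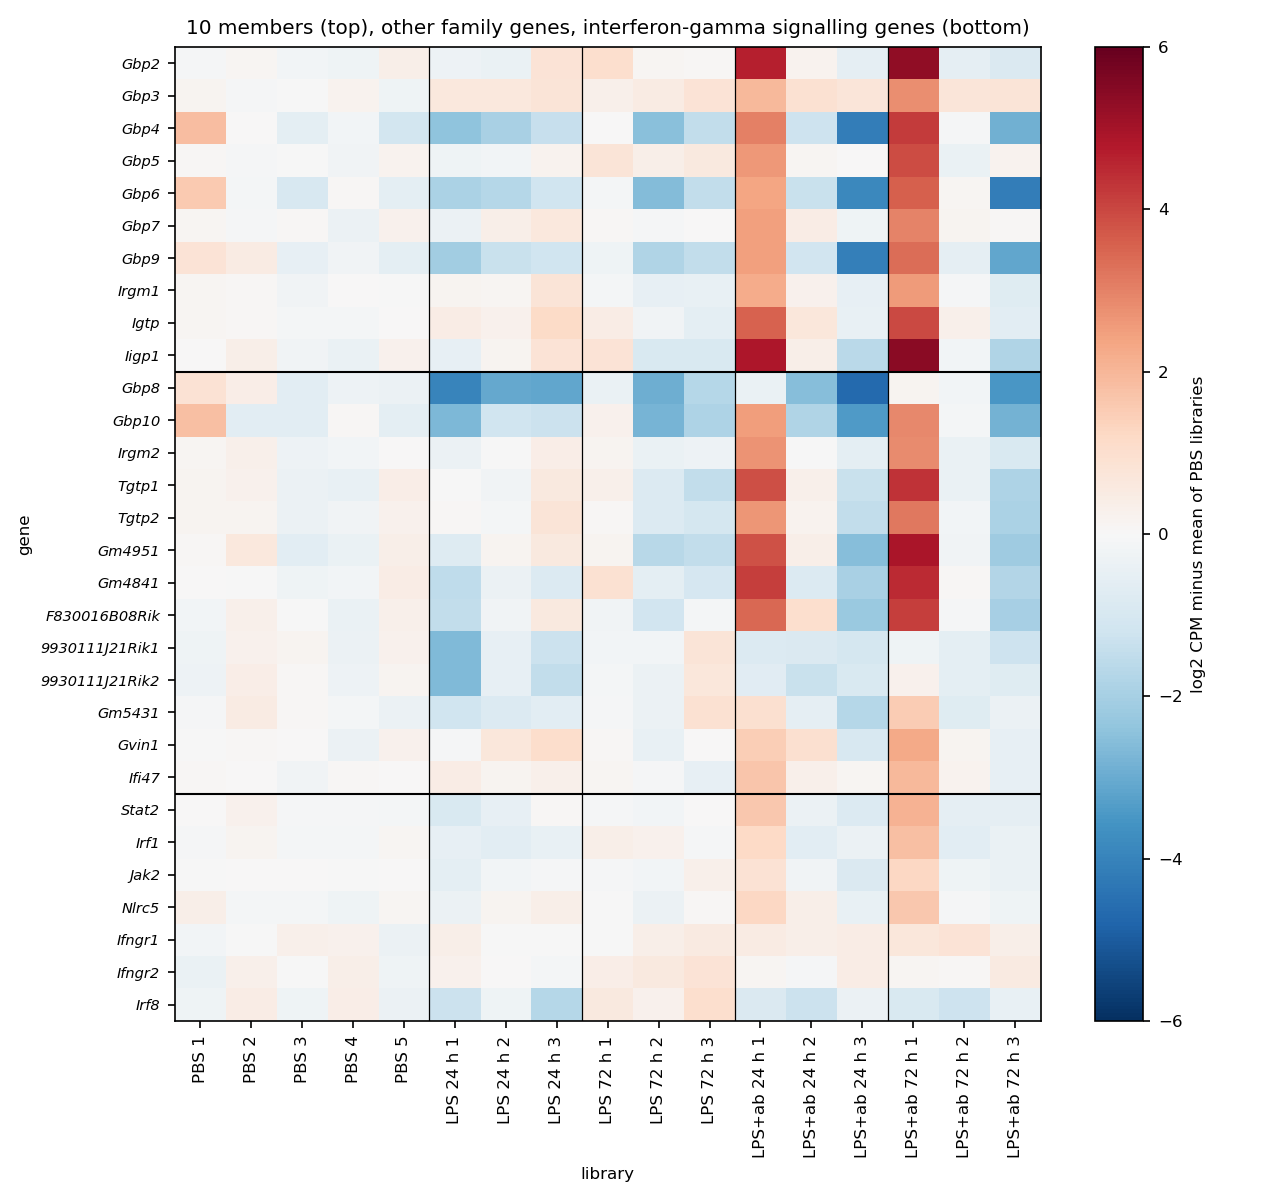
Log2 CPM of the 10 members (top), 13 other family genes (middle) and 7 signalling genes (bottom) in each of the 17 libraries, minus the mean of the PBS libraries (red higher, blue lower). Both antibody libraries numbered 1 are red for all 10 members, and Gbp4, Gbp6, Gbp8 and Gbp9 are blue in the LPS libraries at 24 h and in both antibody libraries numbered 3.

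Among 21 other genes of the interferon-gamma type, 14 had the 2 antibody libraries highest (66.7%). The chemokine genes Cxcl9 and Cxcl10 held 435 and 774 CPM and 55.1 and 429 CPM in them, against at most 20.9 and 9.53 CPM in the other 15. B2m, the light chain of MHC class I, held 2682 and 2842 CPM against at most 2439 CPM, and Serpina3g 1059 and 1819 CPM against at most 378 CPM. Psmb8 and Psme1, which encode parts of the immunoproteasome and its activator, did not have both libraries highest. At 24 h after LPS alone, 3 of the 21 were called, beside 37.6% of all genes, all higher: Psmb8 (log2 change 0.62, edgeR adjusted p = 0.011), Psmb10 (1.02, edgeR adjusted p = 0.0172) and Psme2 (0.96, edgeR adjusted p = 0.00713), the last 2 named after their values were seen. The median log2 change of the list was 0.58 at 24 h and 0.14 at 72 h. Without the 2 antibody libraries numbered 1, 9 of 20 were called higher and 2 lower at 24 h, beside 42.2% of all genes called in that fit.

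Of 22 genes of the type I interferon kind, 19 had the 2 antibody libraries highest (86.4%), the largest share of these lists after the members themselves. Irf7 held 453 and 493 CPM against 7.80 to 163 CPM elsewhere, and Oasl2 265 and 284 CPM against 20.2 to 101 CPM. At 24 h after LPS alone, 2 of the 22 were called (37.6% of all genes), both higher: Oas1a (log2 change 1.04, edgeR adjusted p = 0.0187) and Bst2 (1.32, edgeR adjusted p = 0.0366), which is also a dendritic marker. Oas1a was lower at 72 h than at 24 h (-1.48, edgeR adjusted p = 0.00775), the 1 call of the list in that comparison (31.1% of all genes), and the list's median log2 change there was -1.37, beside 0.02 for all tested genes. Without the 2 antibody libraries numbered 1, 14 of the 22 were called lower from 24 h to 72 h, beside 36.1% of all genes called in either direction. Mx1 and Mx2 were not analysed here.

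The genes of proteins that load these GTPases onto membranes or act downstream of them shared the pattern less often than the lists above. Of 21 such genes, 4 had the 2 antibody libraries highest (19%), beside 7.21% of all tested genes. These were Atg16l1, Sqstm1, Trim21 and Casp4, the last being the sensor of cytosolic LPS. Sqstm1, an autophagy receptor, held 177 and 155 CPM against 89.3 to 146 CPM elsewhere. The conjugated Atg8-type proteins did not: Gabarap held 136 and 108 CPM, Gabarapl1 87.0 and 93.7 CPM and Map1lc3b 86.7 and 90.9 CPM, each inside the range of the other libraries. At 24 h after LPS alone (37.6% of all genes called) 2 of 21 were called higher and 3 lower, Map1lc3b among the latter (log2 change -0.60, edgeR adjusted p = 0.0295), and from 24 h to 72 h (31.1%) 3 were higher and 1 lower, Map1lc3b among the former (0.93, edgeR adjusted p = 0.00605). At 72 h after LPS alone, edgeR called 0 of the 91 tested genes of the 5 lists against PBS, 8 had an unadjusted p below 0.05, and DESeq2 called 0 of the 89 to which it gave an adjusted p.

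**Figure D5:**
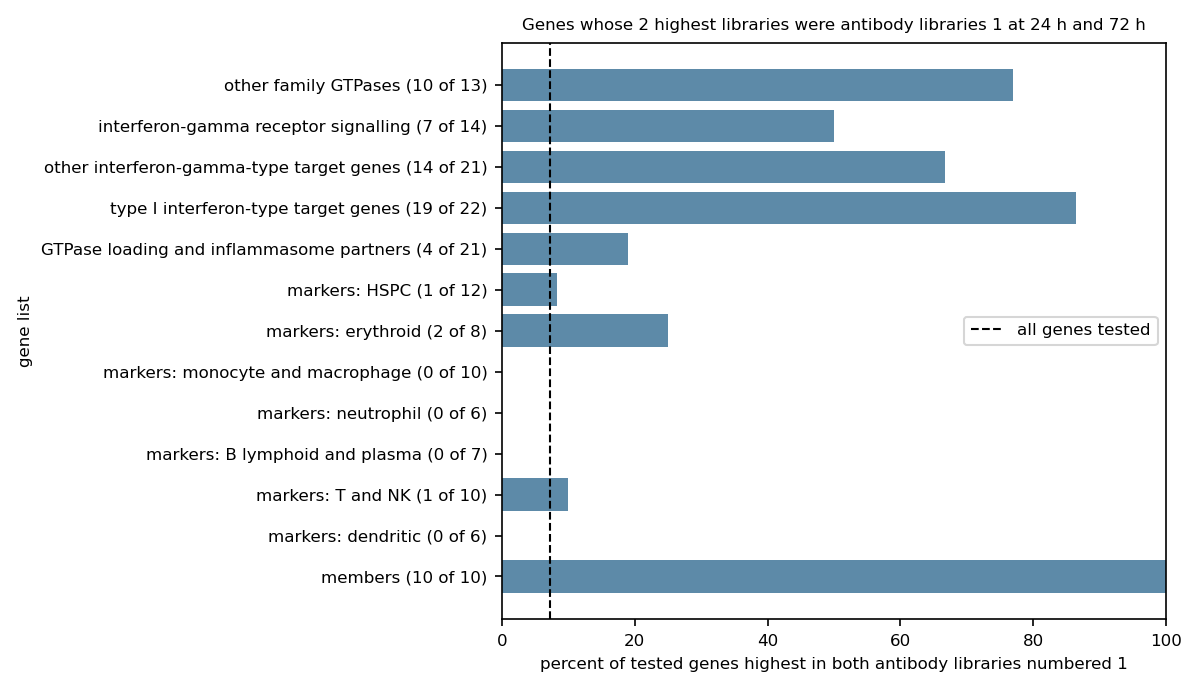
Percent of the tested genes of each list for which antibody libraries 1 at 24 h and at 72 h were the 2 highest of the 17 libraries, with the counts beside each name and the share of all tested genes as a dashed line (7.21%). The members, the other family genes and both interferon lists lie to the right of the line. So do the lists of interferon-gamma receptor signalling (50%) and of loading and inflammasome partners (19%). Of the marker lists, erythroid (25%), T and NK (10%) and HSPC (8.33%) also do, and 4 of the 7 are at 0. The 2 libraries, the members and the lists were chosen with these data in view, so the shares only describe. Genes can be on more than 1 list.

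The members did not all vary together once the 2 libraries were set aside. Over the other 15 libraries, Pearson correlations of log2 CPM between the 3 chromosome 5 genes were 0.949 to 0.959, and between the 3 immunity-related GTPases 0.813 to 0.908. Among the 4 chromosome 3 genes they were -0.24 to 0.613, with a median of 0.17, and between chromosome 3 and chromosome 5 genes -0.599 to 0.451. With all 17 libraries, pairs within each of the 3 sets were at 0.803 or above. These points share libraries and groups, and Gbp4 and Gbp9, though not Gbp6, have overlapping gene models, so the values only describe.

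By the same measure, the genes most like the mean of the members over 17 libraries were Irgm2 (r = 0.983), Ndst2 (0.977), Parp9 (0.977), Gm28177 (0.974) and Tgtp1 (0.966). Over the 15 libraries the order began with Gm12185 (0.902), Irgm2 (0.883), Gm4951 (0.881), H2-T23 (0.873) and Cxcl9 (0.871). Gbp3 alone had other neighbours: Fgl2 (0.951) and Rnf19b (0.94) over 17 libraries, and Sema6b (0.918), Fcgr2b (0.918) and Mapkapk2 (0.906) over 15.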

How the data were processed

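The authors deposited 1 table of raw read counts for 35321 gene symbols in 17 columns, and all columns matched a sample title (0 did not). Per the submitters' processing notes, the tools were HISAT2 2.2.0, Subread with featureCounts 2.1.1, R 4.3.2 and DESeq2, on build GRCm38; the annotation, the strandedness and the handling of reads matching several genes are not given in the sources used here. Groups come from the titles. From these counts, edgeR 4.0.16 (R 4.3.3) was used as follows: filterByExpr (minimum count 10, minimum total 15) kept 14920 genes with 99.9% of the counts, libraries were scaled by TMM, and 1 quasi-likelihood fit with a mean per group covered all 17 libraries. P-values were adjusted by Benjamini-Hochberg over all tested genes, and genes below 0.05 were called. The SE is the absolute log2 change over the square root of F. DESeq2 1.42.0 and other settings served as alternatives, and the procedure was tested on simulated data.

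The members and the lists were chosen with earlier results of these data known. All members were described in every comparison; other genes were named by a rule (the 4 most abundant of each list, 14 named pathway genes, and the genes most correlated with the members), except where a count of 5 or fewer was spelled out after its values were seen. A gene that the rule names is not reported here, though it counts in its list. The departures of PBS and LPS 24 h libraries of the same number from their group mean correlated at 0.191, 0.188 and 0.158 across genes. The labels give no pairing, and libraries of different numbers were not compared in this way, so a pairing was not established. The main fit had no block. A fit blocked on the replicate number, over libraries 1 to 3, served only as an alternative. In the other comparisons at least 1 pair was below 0.1. Between the antibody groups at 72 h and 24 h the libraries numbered 1 correlated at 0.723 and those numbered 3 at 0.697. Those numbered 2 correlated at -0.0217. What libraries of the same number share is not given in the labels.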

Additional observations from a re-analysis of the deposited data

Results flagged for a closer look

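Among the members and the pathway genes named in every case, 20 genes were looked at for a PBS library far from the other 4, and 4 genes had one; groups of 3 were not looked at. Chance alone marks about 1 in 20 such groups. Gbp4 stood at 45.7 CPM in PBS library 1, with the next library at 12.7 CPM, and its gap was 0.828 of the range against a critical 0.71. Gbp6 stood at 90.6 CPM in PBS library 1, with the next at 31.8 CPM (0.785). Gbp10, another gene of the chromosome 5 cluster, stood at 5.40 CPM in the same library, with the next at 1.5 CPM (0.858). Cxcl10 was lowest in PBS library 3, at 1.61 CPM, with the next at 3.54 CPM (0.886).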

How the results depend on the processing

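No member changed sign under another scaling in any comparison; upper-quartile factors shifted the median change over all genes at 24 h after LPS (log2) from -0.03 to -0.16 and the share of called genes that were higher from 50.7% to 36.8%. The count of members called depended on the libraries that set the spread. When only the libraries of the 2 groups entered the fit it was 5 for LPS at 24 h against PBS, 2 for LPS at 72 h against 24 h, 4 for antibody at 24 h against PBS and 1 for antibody at 72 h against PBS. With the replicate block over libraries 1 to 3 it was 4, 2, 0 and 0 in the same order. Without the 2 antibody libraries numbered 1 it was 2, 2, 1 and 1, beside 42.2%, 36.1%, 23.7% and 7.69% of all genes. Under the 7 settings other than leaving out 1 library, counts over all genes ran from 4776 to 6397 for LPS at 24 h against PBS. They ran from 3404 to 5472 for LPS at 72 h against 24 h. For antibody against PBS they ran from 0 to 4184 at 24 h and from 0 to 2866 at 72 h. DESeq2 called 1 member for antibody against LPS at 72 h, where the count over all genes ran from 344 to 2992 under these settings. With each library left out in turn, the count ran from 0 to 5 for antibody at 24 h against PBS and from 0 to 6 for antibody at 72 h against PBS. It ran from 0 to 3 for antibody against LPS at 72 h, and stayed at 0 in the other comparisons. Over all genes the counts then ran from 877 to 3420, from 583 to 2066 and from 769 to 2279 in the same order. Nothing is read from the counts for the antibody libraries. Leaving out antibody library 1 of the same time turned the log2 change of Gbp2 from 3.15 to -0.14 at 24 h and from 3.75 to -0.69 at 72 h, and that of Gbp5 at 72 h from 2.50 to -0.048; leaving out both gave -0.13, -0.69 and -0.049. Over all libraries left out, Gbp2 ran from -0.14 to 3.74 and from -0.69 to 4.34, Gbp5 from -0.048 to 3.04, and Gbp3 from 0.81 to 1.53 at 24 h and from 0.77 to 2.1 at 72 h. Of 242 values of 17 member changes under all settings, 191 kept direction and side of the threshold, 22 lost and 23 gained a call, and 6 reversed. Counts over all genes moved by over 1.5 times for LPS at 24 h (5616, down to 3361 without LPS library 1 at 24 h) and at 72 h (3, from 0 to 172) against PBS, antibody at 24 h (3605, down to 0) and at 72 h (1975, down to 0) against PBS, both at 0 with the replicate block, antibody against LPS at 72 h (2256, down to 344) and the difference of the antibody effects (947, from 44 to 1710). The cause was not tested. Groups of 3, and counts under 100 for Gbp4, Gbp6 and Gbp9 in several libraries, limit the precision.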
